A study of Mus musculus with 6 samples.

Results

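The genes described here encode enzymes of glycolysis, the pathway that turns glucose into pyruvate and lactate in the cytosol. The list held 10 genes (Hk1, Gpi1, Pfkm, Pfkp, Aldoa, Gapdh, Pgk1, Eno2, Pkm and Ldhb), and every probeset that the array's annotation assigns to one of them alone was taken, without control probesets. This gave 20 probesets of 8 genes among 45037 probesets on the array. Gpi1 is named by no probeset of the annotation used and was not analysed here. Apart from controls, Gapdh is named only by probesets shared with other genes, a pseudogene among them, and their values are given apart. The samples were hippocampi of 3 Glud1 Tg mice and of 3 age-matched wt mice, all of them 9-month-old males of the C57BL/6 background. The Tg mice carry the gene for glutamate dehydrogenase 1 under the promoter of neuron-specific enolase (Nse), so that the transgene is driven in neurons only, and no treatment of either group is named in the sources used here. Each mouse gave 1 Affymetrix whole-genome array for the mouse. Homogenized tissue holds all cell types, so fewer cells of a type and less RNA per cell cannot be told apart in any value below.

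Neurons draw most of their energy from the oxidation of glucose and lactate, and astrocytes, the glial cells that take up glutamate from the synapse, run glycolysis at a high rate and can pass lactate on to neurons. Most steps of the pathway have several isozymes encoded by different genes, and the isozymes differ between cell types: Eno2 (neuron-specific enolase) is a marker of neurons and Aldoc, the brain aldolase, of astrocytes. Glutamate dehydrogenase, the product of the transgene, joins this metabolism further on, since it links glutamate to a substrate of the citric acid cycle in mitochondria. The study introduced the gene to raise the formation of glutamate in neurons and its release at synapses.

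Of the 8 genes measured from the list, Ldhb alone had Tg signals below all wt signals at every one of its probesets. Ldhb encodes the heart-type subunit of lactate dehydrogenase, the enzyme that interconverts pyruvate and lactate; tetramers rich in this subunit are typical of tissues that oxidize lactate. The 7 other genes had Tg means from -8.73% to 4.78% relative to the wt means at their brightest probeset, and their Tg and wt values overlapped. limma, with Benjamini-Hochberg adjustment over all 31076 probesets kept after a filter on dim ones, called 0 of the 20 probesets at an adjusted p under 0.05, as it called 0% of all kept probesets. Cyber-T, the Bayesian test named in the methods, also called 0 of the 20, where it called 0.209% of all kept probesets. Here it ran on MAS5 signals with the same adjustment. The study ran it on RMA values beside another test and with a threshold on the fold change, so its calls are not comparable with these. At an unadjusted p under 0.05, 4 of the 20 were lower in Tg mice, against 3.78% of all kept probesets, and 0 were higher, against 5.91%. The 4 are the Ldhb probesets, which measure 1 gene and are not independent of each other. Over all kept probesets, 61.0% of those at an unadjusted p under 0.05 were higher in Tg mice, and 36.2% when each array was centred on its median.

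**Figure D1:**
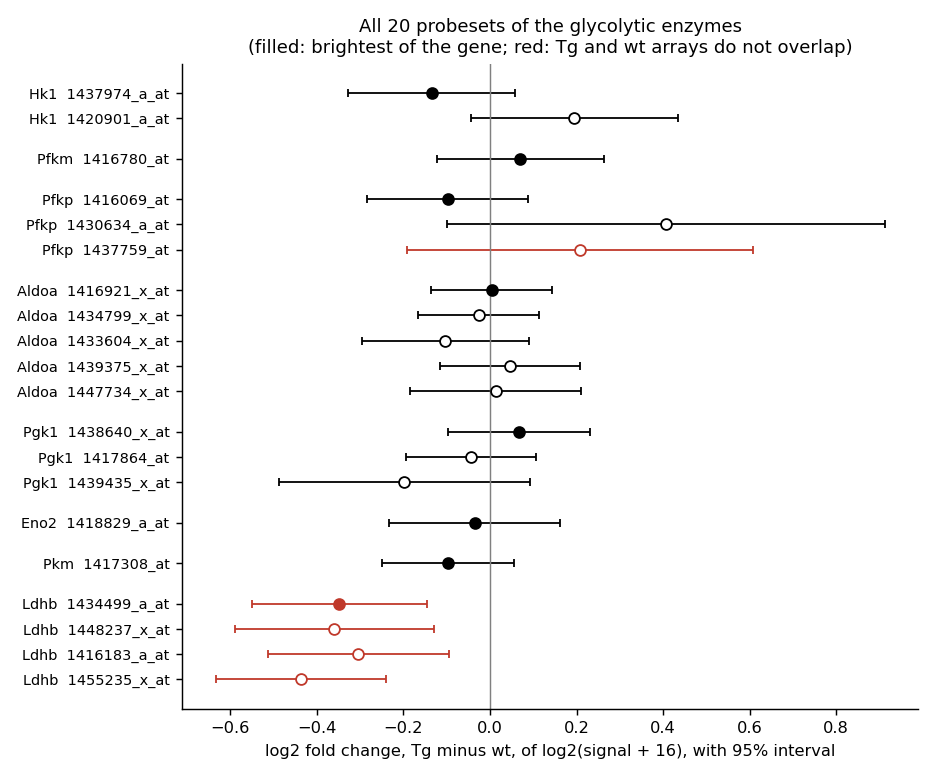
Log2 fold change, Tg minus wt, on the scale of log2(signal + 16), of each of the 20 probesets, with its 95% interval from limma; filled points mark the brightest probeset of a gene, and red marks probesets whose Tg and wt arrays do not overlap. The 4 Ldhb intervals lie below 0, from -0.63 to -0.095 in all, while the intervals of the 16 other probesets include 0.

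Signals are MAS5 values on a linear scale in arbitrary units. At its brightest probeset, Ldhb had signals of 6462.9, 6617.6 and 5736.5 in Tg mice and 7124.7, 8598.9 and 8265.0 in wt mice. The mean came to 6272 ± 470.4 for the Tg arrays and 7996 ± 773 for the wt arrays (SD, n = 3 arrays each), a ratio of 0.784 and a log2 difference (the log2 fold change, Tg minus wt) of -0.35 (SE 0.0923, adjusted p = 0.248 from limma). The highest Tg array was thus below the lowest wt array, and Tg 3 was the lowest of all. At the next in brightness, an x_at probeset, the signals were 6529.8, 6800.8 and 5068.6 in Tg mice and 7902.2, 8078.1 and 7461.0 in wt mice. At the third they were 6198.2, 6517.9 and 5129.9 in Tg mice, against 7165.2, 7711.8 and 7065.9 in wt mice. At the dimmest, also an x_at probeset, they were 5626.0, 5856.5 and 5280.6 in Tg mice, against 8384.4, 6796.0 and 7589.2 in wt mice. Tg 3 was again the lowest array at each of these probesets, whereas the highest wt array was not the same one at all of them. The log2 fold changes were -0.36 (SE 0.106, adjusted p = 0.290), -0.30 (SE 0.0958, adjusted p = 0.327) and -0.44 (SE 0.0904, adjusted p = 0.206), with unadjusted p values from 4.14e-04 to 0.00804 over the 4 probesets. Probesets whose name ends in x_at hold probes that can also bind other transcripts, and a pair of the 4 probesets is annotated to the same transcript record.

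Over all member probesets, the Tg and wt arrays did not overlap for 4 with lower values in Tg mice, all of Ldhb, against 6.67% of all kept probesets, and for 1 with higher values, against 8.58%. Since the groups did not overlap, leaving out any 1 array could not turn the direction at Ldhb. The log2 fold changes at the brightest probeset were then from -0.43 to -0.28, with adjusted p values from 0.162 to 0.655 from limma. Without Tg 3, the lowest array, the log2 fold changes of the probesets of middle brightness were -0.23 and -0.20. Among the wt arrays, wt 1 and wt 2 stood apart on the control probeset for the 3' end of 18S ribosomal RNA, with 13960.1 and 10375.2, whereas wt 3 had 2286.5 and the Tg arrays lay between 975.5 and 3312.8. A comparison without wt 1 and wt 2 was added once the data had been seen. In it wt 3 stands alone and is assumed to vary like the Tg arrays. The Ldhb log2 fold change was then -0.40. The sign of this value could not have turned, since every wt array, wt 3 included, was above every Tg array at each of the 4 probesets. Averaged over the 4 probesets and set against the mean of all arrays, Ldhb stood at -0.12, -0.069 and -0.35 on the log2 scale in Tg 1, Tg 2 and Tg 3, and at 0.17, 0.20 and 0.17 in wt 1, wt 2 and wt 3. The SD was 0.149 among the Tg and 0.0181 among the wt arrays, but the wt arrays varied more in signal at the brightest and the dimmest probeset, and their order was not the same at all 4.

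**Figure D2:**
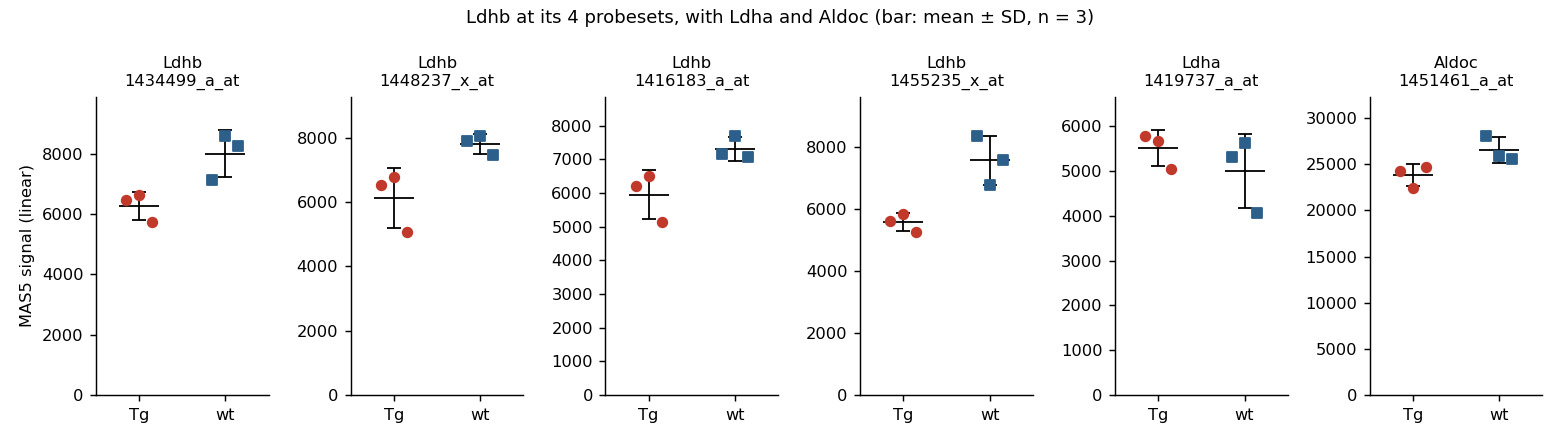
MAS5 signals per array at the 4 Ldhb probesets and at the brightest probesets of Ldha and Aldoc, Tg (circles) left of wt (squares); the bars give the mean and the SD of 3 arrays. Every Tg array is below every wt array for Ldhb and for Aldoc, whereas for Ldha the Tg arrays, from 5051.7 to 5796.8, lie within or above the wt range of 4071.4 to 5619.1.

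Ldha encodes the muscle-type subunit of the same enzyme, typical of tissues that make lactate. It had signals of 5796.8, 5683.7 and 5051.7 in Tg mice and 5313.3, 5619.1 and 4071.4 in wt mice, a log2 difference of 0.15 (SE 0.116, adjusted p = 0.708) with overlapping groups. The difference in log2 signal between Ldhb and Ldha within an array, in which a factor common to the whole array cancels apart from the pseudocount, was lower by 0.50 in Tg than in wt mice. It was lower on every Tg array than on every wt array (two-sided exact permutation test, p = 0.1, and 3 against 3 arrays cannot give less; 0.2 after adjustment over the 4 isozyme pairs compared). On that scale the Tg arrays lay close together, at -0.28, -0.22 and -0.25 relative to the mean of all arrays. The wt arrays were spread out, at -0.013, 0.18 and 0.58, and wt 3, where Ldha was lowest, was the farthest. Without wt 3 the change was -0.33.

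The sequences before the start sites of both subunit genes are shown because Ldhb was the member whose groups were apart and Ldha is its partner, and that of Eno2 because the transgene is driven by the promoter of this gene. They are from RefSeq on build GRCm38.p6, 250 bases before the annotated start, 5' to 3' in the direction of transcription, at chr6:142507958-142508207 (minus strand) for Ldhb, chr7:46845554-46845803 (plus strand, the upstream of its start sites) for Ldha and chr6:124769674-124769923 (minus strand) for Eno2. Capitals mark ACGTG or its reverse complement CACGT, a form of the core of the hypoxia response element, and where both overlap the run reads CACGTG. How much of the Eno2 sequence the transgene holds is not given in the sources used here.
Ldhb: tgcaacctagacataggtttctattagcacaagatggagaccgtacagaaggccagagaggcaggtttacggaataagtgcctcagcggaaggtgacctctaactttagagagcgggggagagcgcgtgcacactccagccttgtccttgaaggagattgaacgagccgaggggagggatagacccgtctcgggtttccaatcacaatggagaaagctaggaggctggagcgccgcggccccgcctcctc
Ldha: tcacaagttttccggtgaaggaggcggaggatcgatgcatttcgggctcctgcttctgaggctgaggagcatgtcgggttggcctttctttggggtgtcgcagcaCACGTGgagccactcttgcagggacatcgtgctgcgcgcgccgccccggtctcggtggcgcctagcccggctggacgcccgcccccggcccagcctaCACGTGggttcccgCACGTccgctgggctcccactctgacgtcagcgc
Eno2: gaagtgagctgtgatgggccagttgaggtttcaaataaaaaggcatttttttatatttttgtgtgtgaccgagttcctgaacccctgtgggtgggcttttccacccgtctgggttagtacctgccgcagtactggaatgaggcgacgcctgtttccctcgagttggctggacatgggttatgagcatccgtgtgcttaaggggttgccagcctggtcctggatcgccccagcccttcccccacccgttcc
The Ldha sequence holds 5 matches, counted on both strands, and the sequences of Ldhb and Eno2 hold 0. The upstream Ldha start is the one shown because it holds the matches, and the same stretch before the other Ldha start in the table holds 0. RefSeq gave a sequence for all 10 listed genes, with 17 start sites in all. A match was found for 4 of the 10 genes, Pfkm, Aldoa, Pgk1 and Pkm, where 18.5% of all 27025 genes in the table have one, and at 6 of the 17 start sites, where 16.6% of all 32851 do. A pair of Aldoa start sites lie so close that they share 1 match, which is counted for each. A match of letters is a description of the sequence and not a binding site.

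The upper part of the pathway, from the entry of glucose to the split of the sugar phosphate, showed no difference that all probesets of a gene shared. Hk1 encodes the hexokinase that is most abundant in brain and traps glucose in the cell by phosphorylation. Its brightest probeset had 5779.2, 4962.6 and 4874.6 in Tg mice and 5423.5, 5953.0 and 5734.2 in wt mice, a log2 difference of -0.13 (95% interval from -0.33 to 0.058). Its other probeset went the other way, with 2649.4, 3420.0 and 3344.4 in Tg mice, against 2602.5, 2924.8 and 2648.1 in wt mice, a log2 difference of 0.20 (95% interval from -0.044 to 0.43). Tg 1 was the array that overlapped with the wt arrays at both probesets, and neither passed (adjusted p = 0.650 and 0.600 from limma).

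Pfkm and Pfkp encode the muscle and platelet subunits of phosphofructokinase, which catalyses the committed step of glycolysis. Pfkm had 6531 ± 244 in Tg mice and 6239 ± 668 in wt mice, a log2 difference of 0.070 (95% interval from -0.12 to 0.26) that was 0.0061 without wt 1, 0.15 without wt 2 and 0.0041 with arrays centred on their median. Pfkp had 3603 ± 207 in Tg mice and 3856 ± 200.2 in wt mice at its brightest probeset, a log2 difference of -0.098 (95% interval from -0.28 to 0.089). Both overlapped between the groups. The dimmer Pfkp probesets had positive log2 fold changes. At the dimmest of them the signals were 298.4, 268.7 and 293.2 in Tg mice and 251.1, 236.9 and 249.6 in wt mice, so that every Tg array was above every wt array, but the log2 fold change of 0.21 did not pass (SE 0.183, adjusted p = 0.743). At the one of middle brightness they were 781.9, 736.4 and 780.2 in Tg mice and 596.9, 368.9 and 853.2 in wt mice. The wt arrays thus lay on both sides of the Tg arrays, and the log2 fold change of 0.41 (SE 0.232, adjusted p = 0.606) was 0.099 without wt 2 and 0.69 without wt 3, and -0.15 without wt 1 and wt 2. The study chose that probeset on these same samples, so its direction is not independent evidence.

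Aldoa, the aldolase that splits fructose bisphosphate, has 5 probesets, and their log2 fold changes lay between -0.10 and 0.047. All of them are x_at probesets, whose probes can also bind other transcripts. At the brightest the signals were 28119.2, 28006.1 and 27545.1 in Tg mice and 27984.1, 28692.3 and 26766.3 in wt mice, a log2 difference of 0.0045 (95% interval from -0.14 to 0.14) that was -0.062 with arrays centred on their median. All 5 overlapped between the groups.

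The lower part of the pathway, from Gapdh to pyruvate, showed overlapping groups at every probeset of Pgk1, Eno2 and Pkm. Pgk1 encodes phosphoglycerate kinase, which makes ATP. It had 11309.6 ± 681 in Tg mice and 10794 ± 444 in wt mice at its brightest probeset, with log2 fold changes of 0.066, -0.044 and -0.20 at its 3 probesets. The brightest and the dimmest of these are x_at probesets, and the remaining one had -0.044. Eno2 encodes the neuronal enolase subunit, and its own promoter drives the Glud1 transgene. Its signals were 10873.1, 9045.6 and 11388.0 in Tg mice and 10904.7, 10815.7 and 10228.2 in wt mice, a log2 difference of -0.036 (SE 0.0904, 95% interval from -0.23 to 0.16) that was 0.015 after quantile normalization and 0.064 without Tg 2. Tg 2 and Tg 3 were the lowest and the highest of all 6 arrays, and the wt arrays lay between them. The study used Eno2 to standardize its real-time PCR. Pkm encodes pyruvate kinase, the last step before pyruvate. It had 12111.8, 12196.8 and 13212.3 in Tg mice and 13449.7, 13585.5 and 13074.1 in wt mice, a log2 difference of -0.097 (95% interval from -0.25 to 0.056), with Tg 3 alone above the lowest wt array.

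**Figure D3:**
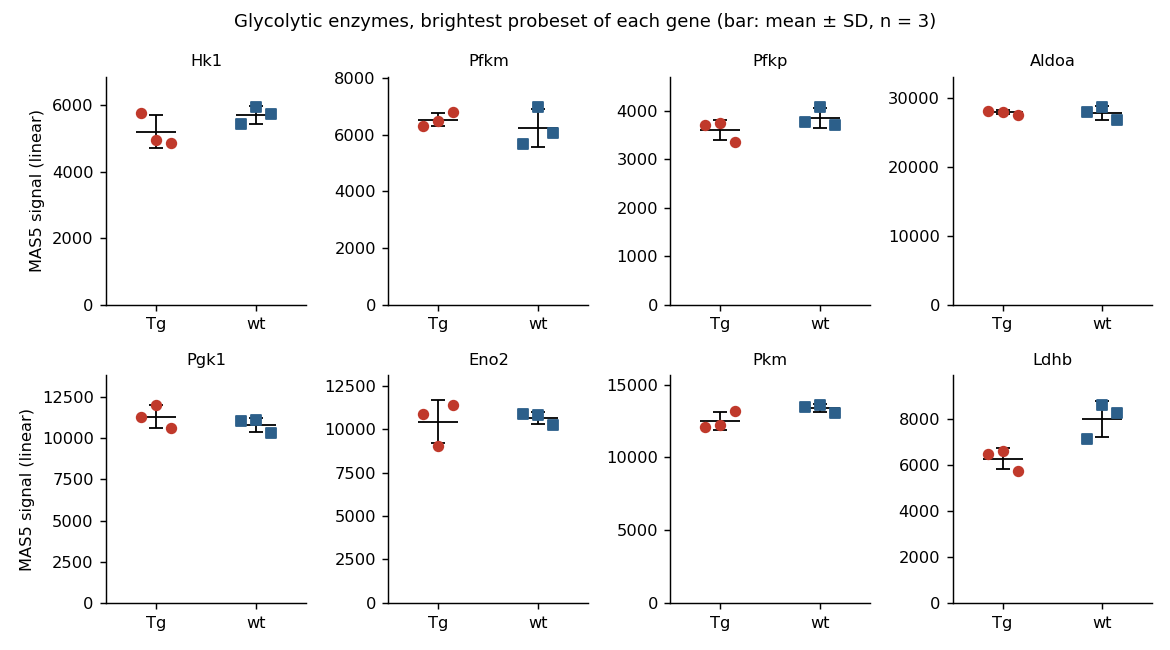
MAS5 signal of the brightest probeset of each of the 8 measured genes on each array, Tg (circles) left of wt (squares); the bars give the mean and the SD of 3 arrays. The groups are apart for Ldhb, at 5736.5 to 6617.6 in Tg mice and 7124.7 to 8598.9 in wt mice, and overlap for the 7 other genes.

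Gapdh encodes the dehydrogenase that precedes Pgk1 in the pathway. The brightest probeset that names it is annotated to 5 genes, Gapdh among them, so its signal cannot be assigned to Gapdh alone. It had 41211.4, 44586.8 and 46425.1 in Tg mice and 49948.8, 42973.6 and 40756.3 in wt mice, a log2 difference of -0.012 (SE 0.0837), with wt arrays both above and below the whole Tg group. The dimmer shared probesets had log2 fold changes of -0.035 and -0.31 and overlapped between the groups.

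Over the 8 genes at their brightest probeset, 3 had a positive and 5 a negative log2 fold change, and the median was -0.066, where the median over all 13854 genes measured was -0.031 and 44.1% were positive. The Tg and wt arrays did not overlap for 1 of the 8, Ldhb, lower in Tg mice, against 8.81% of all genes, and for 0 with higher values, against 5.20%. Without Ldhb the median was -0.036. The mean level of the 8 genes relative to all arrays was -0.0078, -0.045 and -0.054 on the log2 scale in Tg 1, Tg 2 and Tg 3, and -0.0030, 0.10 and 0.0055 in wt 1, wt 2 and wt 3. No Tg array reached the lowest wt array, but without Ldhb the order was lost, with 0.0094, -0.038 and -0.019 in Tg mice and -0.0052, 0.079 and -0.026 in wt mice. The array with the highest level of the pathway was wt 2 in both cases.

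Of the 3 other isozyme pairs, Aldoa over Aldoc differed most regularly between the groups. Aldoc had 24314.0, 22441.8 and 24687.3 in Tg mice and 28127.3, 25902.6 and 25613.1 in wt mice, so that every Tg array was below every wt array, with a log2 difference of -0.16 (SE 0.0712, unadjusted p = 0.0480, adjusted p = 0.513 from limma). The ratio of Aldoa to Aldoc was higher by 0.16 on the log2 scale in Tg mice and lay above the wt arrays on every Tg array (two-sided exact permutation test, p = 0.1, adjusted 0.2). Pfkm over Pfkp was higher by 0.17 (two-sided exact permutation test, p = 0.2, adjusted 0.267) and Hk1 over Hk2 lower by 0.21 (two-sided exact permutation test, p = 0.5, adjusted 0.5), and both overlapped between the groups. Without Tg 3 these changes were 0.092 for Pfkm over Pfkp and -0.047 for Hk1 over Hk2, and Hk1 over Hk2 had a change of -0.42 without Tg 1, -0.13 without wt 2 and -0.094 after quantile normalization. Hk2, the hexokinase induced by insulin and hypoxia, was dim here, with 230.4 ± 42.4 in Tg mice and 215.8 ± 15.1 in wt mice. A ratio for Eno2 and Eno1 was not analysed here, since the annotation used gives Eno1 no probeset of its own.

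**Figure D4:**
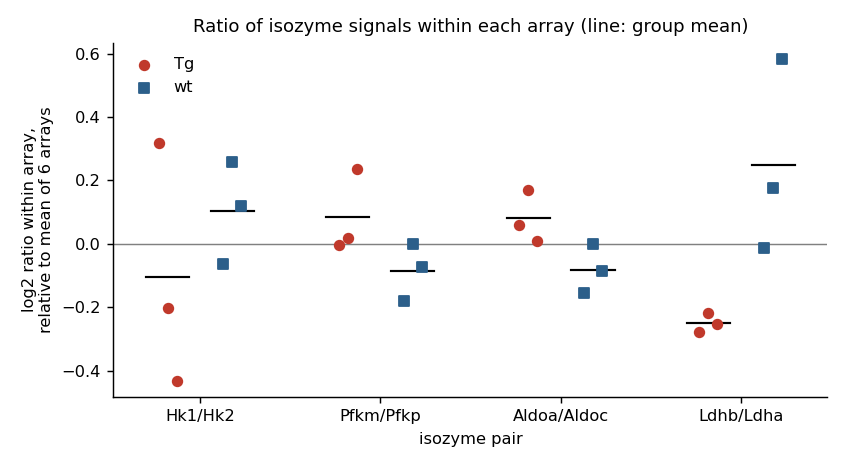
Log2 ratio of the signals of each isozyme pair within an array, set against the mean of the 6 arrays, for Tg (circles) and wt (squares); lines are group means. The groups are apart for Ldhb over Ldha, with a change of -0.50, and for Aldoa over Aldoc, with a change of 0.16, and overlap for the 2 other pairs.

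Of the glycolytic enzymes outside the list, 15 of 20 were measured, and limma called 0 of them. At an unadjusted p under 0.05, 2 were lower, Aldoc and Bpgm, and 0 were higher, where 4.97% of all genes were lower and 2.90% higher. Bpgm makes bisphosphoglycerate at a side branch next to Pgk1. It had 1478.1, 1502.7 and 1161.0 in Tg mice, against 1761.0, 1762.0 and 1631.0 in wt mice, a log2 difference of -0.32 (SE 0.118, adjusted p = 0.410). The median over the 15 genes was -0.0047, and the extremes were dim genes, Hk3 with -0.58 and Hkdc1 with 1.18, at unadjusted p values of 0.0976 and 0.0729. Tpi1, which interconverts the triose phosphates, and Pgam1, the mutase that precedes enolase, had log2 fold changes of 0.040 and -0.086.

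Among glucose and lactate carriers and the enzymes that regulate or branch from the pathway, 13 of 17 were measured, with 0 called and a median of 0.11. Gpd1, the cytosolic enzyme that turns a triose phosphate into glycerol phosphate, had a higher signal on every Tg array, with 1120.6, 1080.5 and 1135.5 in Tg mice and 880.2, 877.2 and 935.1 in wt mice, a log2 difference of 0.30 (SE 0.108, unadjusted p = 0.0156, adjusted p = 0.391). It was the only 1 of the 13 with an unadjusted p under 0.05. Gpd2, its mitochondrial counterpart in the glycerol phosphate shuttle, had 4104 ± 97.3 in Tg mice and 4532 ± 173 in wt mice, with all Tg below all wt arrays but an unadjusted p of 0.0941. The pentose phosphate and glycogen enzymes, of which 14 of 16 were measured, had 0 genes at an unadjusted p under 0.05 and a median of -0.032. The brightest of them were Tkt, a transketolase, with 7606 ± 1524 in Tg mice and 7962 ± 361 in wt mice, and Gsk3b, a kinase of glycogen synthase, with 4208 ± 265 in Tg mice and 3776 ± 481 in wt mice. Of 9 hypoxia-induced genes outside glycolysis, all measured, 0 were called and the median was 0.057. Ddit4, a stress-induced inhibitor of mTOR signalling, was higher on every Tg array, with 848.1, 1265.5 and 848.9 in Tg mice and 761.7, 719.7 and 780.9 in wt mice (log2 fold change 0.36, unadjusted p = 0.0429, adjusted p = 0.496).

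**Figure D5:**
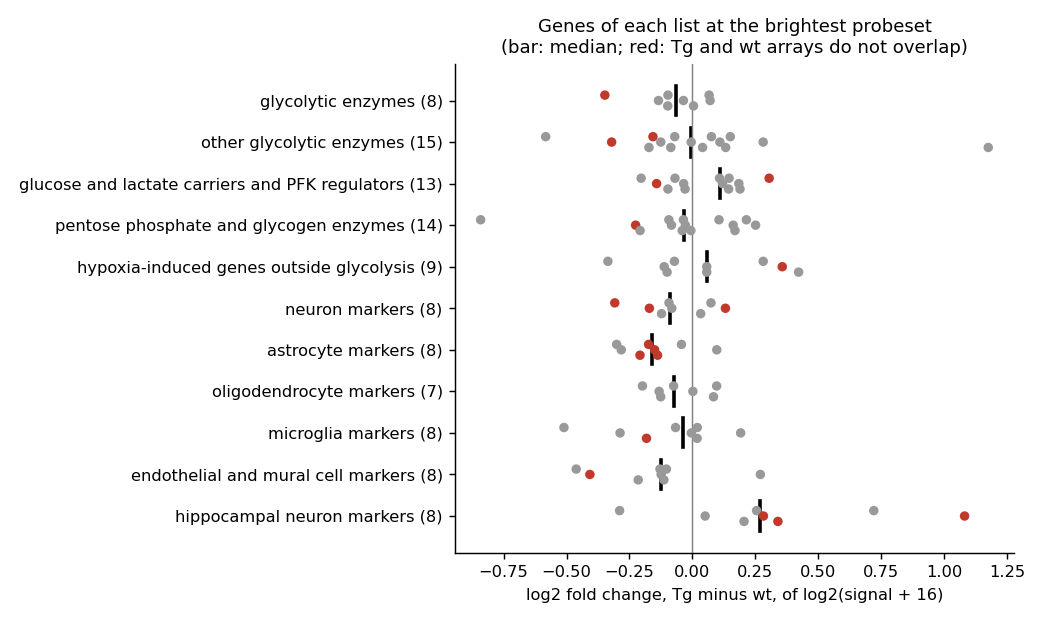
Log2 fold changes (Tg minus wt) for the measured genes of the glycolytic enzymes and of the other lists at their brightest probeset, with the number of genes in brackets; bars are medians and red marks genes whose Tg and wt arrays do not overlap. The median is -0.066 for the glycolytic enzymes, -0.16 for astrocyte markers and 0.27 for hippocampal neuron markers.

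Markers of hippocampal neurons and of the other cell types of the tissue were measured on all arrays. In some lists the summed signals of Tg and wt mice did not overlap, though by narrow margins. Of all 13854 genes, 44.1% had a positive log2 fold change. Of the 8 astrocyte markers, 7 had a negative log2 fold change (median -0.16), and their summed signal ran from 30488.3 to 31825.4 in Tg mice and from 31826.3 to 35754.3 in wt mice. The study, however, lists Gja1 of these markers as up-regulated in Tg mice, and also Slc1a2, a glial glutamate transporter outside the list. At the probeset read here Gja1 had -0.15, with all Tg below all wt arrays. Gfap, the intermediate filament of astrocytes, had 4315 ± 403 in Tg mice and 5379 ± 1121 in wt mice (unadjusted p = 0.0393, adjusted p = 0.488). The part of astrocytes in the values of Ldhb and Aldoc was not tested. Of the 8 neuron markers, 5 were negative (median -0.087), with summed signals from 95796.2 to 101128 in Tg mice and from 97887.2 to 105018 in wt mice. Tubb3, a neuronal tubulin, had 1529 ± 249 in Tg mice and 1880 ± 65.2 in wt mice (adjusted p = 0.456), whereas Snap25, the brightest of that list, had a log2 difference of 0.033. Of the 8 markers of granule and pyramidal neurons of the hippocampus, 7 were positive (median 0.27), with summed signals from 14988.5 to 15708.5 in Tg mice and from 13013.4 to 14927.7 in wt mice. Dsp and Prox1 of the granule cells and Rgs14 of CA2 had positive log2 fold changes of 1.08, 0.72 and 0.28 at an unadjusted p under 0.05, and Wfs1 of CA1 a negative one of -0.29. Dsp, Prox1 and Rgs14 were read at probesets that the study had itself picked from these arrays, which makes their direction no independent evidence. The same holds for the positive values of Elavl3 among the neuron markers, of Mbp, and of Calb1 among these 8 markers. The study lists these genes as up-regulated too. The mean level of these 8 markers relative to all arrays was 0.20, 0.17 and 0.13 on the log2 scale in Tg 1, Tg 2 and Tg 3, and -0.27, -0.23 and 0.0063 in wt 1, wt 2 and wt 3, so that the arrays apart on 18S were also the lowest here. Without wt 1 and wt 2, 7 of the 8 were positive, with a median of 0.18 and log2 fold changes of 0.28 for Dsp and 0.26 for Prox1, and the astrocyte markers had a median of -0.21. The part of these regions in the glycolytic values was not tested either. Oligodendrocyte markers (7 of 8 measured, median -0.075, with 0.096 for Mbp and -0.20 for Cnp, the brightest of them), microglia markers (8 of 8, median -0.036) and endothelial and mural cell markers (8 of 8, median -0.13) had summed signals that overlapped between the groups. Without wt 1 and wt 2 the medians of oligodendrocyte and microglia markers were 0.14 and 0.033. Among these, Csf1r of microglia, with a log2 difference of -0.18, and Pdgfrb of mural cells, with -0.46, had an unadjusted p under 0.05, and limma called 0 genes of any marker list.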

How the data were processed

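Hippocampal RNA of 3 Tg and 3 wt mice was hybridized to 1 array each (6 arrays). The deposited values are MAS5 signal intensities on a linear scale, made by the authors with the scanner's software. The lists in the study rest on RMA values, which were not used here, and were read only to say which probesets or genes the study had chosen. Of 45037 probesets that are not controls, 34945 named 1 gene, 932 several and 9160 no gene. The dimmest 31% by mean log2(signal + 16) were dropped, which left 31076, and groups were compared on log2(signal + 16) with limma 3.58.1 in R 4.3.3 (eBayes with trend, Benjamini-Hochberg adjustment over all kept probesets, threshold 0.05). A gene was read at its brightest kept probeset that names it alone, which gave 13854 genes. Fold changes are Tg minus wt, and the pseudocount of 16 understates changes of dim genes. Isozyme ratios were compared with the exact permutation test. By the naming rule, the text names the members at their brightest probeset, member probesets at an unadjusted p under 0.05 or without overlap between the groups, the isozymes of the pairs, and in each list the genes at an unadjusted p under 0.05 or, where there was none, the 2 brightest. Hk3, Hkdc1, Tpi1, Pgam1, Gpd2, Snap25 and the other probesets described were chosen after their values were seen. The members and lists were chosen with earlier results of these data known. The number of arrays limits the precision. The p-values of limma set each group difference against the spread between arrays, drawn towards that of probesets of like signal. With 1 array for each mouse, this spread holds the mice and the handling of their samples together. The script was tested on simulated data. Promoter sequences are from RefSeq (GRCm38.p6).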

Additional observations from a re-analysis of the deposited data

How the results depend on the processing

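With 3 arrays a group, limma called 0 of the 20 probesets in every alternative run, and Cyber-T, which called 65 probesets over the whole array, also called 0 of them. The log2 fold change of Ldhb at its brightest probeset was negative in every alternative, from -0.43 to -0.28. Leaving out arrays could not turn its sign, since the groups did not overlap. The adjusted p was 0.113 from Cyber-T and 0.655 from limma without Tg 3. At the other Ldhb probesets the log2 fold changes ran from -0.51 to -0.20. The dimmest of them had an adjusted p of 0.058 from Cyber-T, just above the threshold. With 1 array left out, Hk1 had -0.21 to -0.090, Pfkm 0.0061 to 0.15, Pfkp -0.13 to -0.050, Pgk1 0.023 to 0.11 and Pkm -0.14 to -0.074. Signs near 0 turned. Aldoa had -0.062 with arrays centred on their median and -0.013 as the mean of its probesets, 0.059 without wt 1 and wt 2, and from -0.023 to 0.027 with 1 array left out. Eno2 had 0.015 after quantile normalization, 0.022 without wt 1 and wt 2, and from -0.10 to 0.064 with 1 array left out. Averaged over their probesets, Hk1 had 0.030, Pfkp 0.17 and Pgk1 -0.058. Without wt 1 and wt 2, a comparison added after seeing the data, the Pfkp probeset of middle brightness had -0.15, and it had from 0.099 to 0.69 with 1 array left out. The median over the measured genes, -0.066, was -0.0081 after quantile normalization, -0.13 with median centring, -0.012 without wt 1 and wt 2, and from -0.089 to -0.039 with 1 array left out. Probesets with all Tg above all wt arrays numbered 5 after quantile normalization, 0 with median centring, 6 without wt 1 and wt 2 and 1 to 3 with 1 array left out, where the shares over all kept probesets were 7.22%, 5.81%, 27.1% and 12.8% to 15.6%. Those with all Tg below numbered 7 with median centring, against 11.2% of all kept probesets, and 4 to 8 with 1 array left out, against 10.7% to 12.9%. At an unadjusted p under 0.05, 2 were lower with limma without trend and 2 without wt 1 and wt 2, against 2.86% and 1.75% of all kept probesets. With 1 array left out, 4 to 6 were lower, against 2.85% to 4.44%, and 0 to 1 higher, against 3.63% to 7.11%. The median log2 level of the kept probesets was 8.37 in Tg and 8.30 in wt mice, higher on every Tg array than on every wt array. Centring on the median takes this difference, 0.066, off every log2 fold change. What lies behind the difference, and behind the changes under the other alternatives, was not tested. Arrays with the same replicate number did not deviate together (r = -0.0159, 0.00779 and 0.0333), where unlike numbers gave -0.0422 to 0.0364. No pairing by number was thus seen, which does not show that the mice were unpaired. With the replicate number as a block, limma called 0 of the 20 probesets, and Ldhb had -0.35 (adjusted p = 0.239). In that run 4 were lower at an unadjusted p under 0.05, against 3.66% of all kept probesets, and 0 were higher, against 5.95%. Over all kept probesets, 1837 Tg values were higher and 1174 were lower by an unadjusted p under 0.05, against 1549 and 1273 after quantile normalization and 1226 and 2162 with median centring.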
